A study of Mus musculus with 12 samples.

Results

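The Zfp genes described here are the mouse genes whose symbol is Zfp followed by a number, nearly all of which are named for the zinc fingers of their proteins. They were taken by symbol from a table of 13780 genes counted in mouse CD8+ T cells. Zfp36, whose protein binds RNA through CCCH fingers, was left out, and 294 genes remained. All 294 passed the filter on low counts, which asked for at least 1 CPM (the count scaled to the library total) in 3 or more libraries and which 13767 of the 13780 genes passed. Since nearly all rows passed, this says little about the members, and Zfp genes without a row were not assessed. Zfp91 shared its row with another gene and Zfp57 was not analysed here.

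RNA was measured by mRNA sequencing in CD8+ T cells purified with magnetic beads by positive selection from spleens of wild type C57BL/6J mice, 8 to 12 weeks of age. 4 libraries came from naïve cells, frozen at once after isolation and never stimulated. Another 4 came from cells activated for 72 h with beads carrying anti-CD3 and anti-CD28, with recombinant human IL-2 at 10 U/ml, in plain media (hereafter media), and 4 from cells activated in the same way with 40 mM sodium lactate added (hereafter lactate). The control for lactate was plain media and not an equal dose of sodium chloride, so the lactate anion, sodium and osmolarity cannot be told apart. Each group came from 4 separate donor mice. The WT numbers of the labels were read as donor mice within each range of library numbers, which gives 5 donors for the 8 activated libraries, with 3 of them present in both media and lactate. In bulk RNA, fewer cells of a type and less RNA per cell cannot be told apart.

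Library totals ran from 14726904 to 21478137 counts. The defining T cell genes Cd3d, Cd3e and Cd3g summed to between 770.2 and 1915 CPM and Cd8a with Cd8b1 to between 808.8 and 2284 CPM, so T cell and CD8 genes were expressed in every library. Naïve libraries also carried 392 to 953.8 CPM of B cell markers (4 of 4 listed), 410 to 1263 CPM of myeloid markers (5 of 5 listed) and 75.69 to 2939 CPM of red cell markers (3 of 4 listed). In naïve 1 to naïve 4 the Cd3 genes summed to 1100, 1006, 1298 and 770.2 CPM. The B cell sums there were 663.2, 953.8, 392 and 797.4 CPM and the myeloid sums 1263, 989.7, 423.5 and 410 CPM. Some naïve libraries thus held as much of other markers as of the Cd3 genes. Cd4 was at 11.2 to 27.1 CPM in naïve cells and at most 0.99 CPM after activation. In media the B cell sum was 8.14 to 14.7 CPM and the myeloid sum 11.9 to 18.6 CPM, in lactate they were 5.23 to 7.44 and 5.23 to 10.9 CPM, and the red cell sum was at most 1.742 CPM in both. The Cd3 genes summed to 1460 to 1915 CPM in media and 839.6 to 1096 CPM in lactate. Markers of other cells thus moved with every comparison against naïve cells, and low levels of B cell and myeloid markers and the Cd3 genes also moved between media and lactate without overlap. Their part in the results was not tested.

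C2H2 zinc fingers are short units folded around a zinc ion, and a row of them reads a stretch of DNA, each finger contacting a few bases. Many of these proteins also carry a KRAB box, which binds the corepressor Trim28 (KAP1). Trim28 brings the histone methyltransferase Setdb1, HP1 proteins and the NuRD complex to the bound site, and the best known targets are retroelements and imprinted genes. KRAB zinc finger genes arose by repeated local duplication and often lie side by side on a chromosome.

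A KRAB box was found in the translated coding sequence of 176 of the 294 Zfp genes and was not found in the other 118. KRAB members held a median of 12 fingers (2 to 33) and members without the box a median of 7 (0 to 37). The linker that joins neighbouring C2H2 fingers was encoded at least once in 219 members, 166 of them with KRAB and 53 without. Only the exact form with a lysine codon before the last codon was counted. The linker of Zfp945 printed below has an arginine codon there, a form that was not counted. 1 finger each of Zfp945, Zfp773, Zfp949, Zfp871 and Zfp420, which were lower with lactate, and of Zfp566, which was higher, lets the repeated unit be seen. Each stretch runs 84 bases, 5′ to 3′ on the coding strand of GRCm38 transcripts, and the capitals mark the codons of the linker.
Zfp945, finger 4: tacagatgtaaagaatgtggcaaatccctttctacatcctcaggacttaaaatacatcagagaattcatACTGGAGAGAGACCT
Zfp773, finger 2: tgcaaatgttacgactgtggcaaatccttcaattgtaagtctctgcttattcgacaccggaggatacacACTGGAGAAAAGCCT
Zfp949, finger 1: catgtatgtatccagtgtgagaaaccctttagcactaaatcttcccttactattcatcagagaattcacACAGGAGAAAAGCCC
Zfp871, finger 2: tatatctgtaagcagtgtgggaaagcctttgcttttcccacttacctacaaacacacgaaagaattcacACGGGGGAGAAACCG
Zfp420, finger 1: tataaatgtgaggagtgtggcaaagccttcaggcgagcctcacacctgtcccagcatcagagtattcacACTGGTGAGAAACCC
Zfp566, finger 2: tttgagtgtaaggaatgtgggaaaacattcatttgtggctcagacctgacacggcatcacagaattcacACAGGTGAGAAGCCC
Among the 6 genes, 6 of the 15 linker bases differ, 5 of them the last base of a codon. Of the other 69 bases, which include those for the residues that face the DNA, 45 differ.

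Promoters were read from RefSeq on GRCm38.p6, as windows from 250 bases before to 50 bases after an annotated start. Such windows, 291 in all, were matched to 242 of the 294 members, and 52 members had none. A sequence known to be bound by ZNF143, ACTACA followed after any 3 bases by CCCAG, lay on either strand in 30 of the members' 291 windows (10.3%) and in 383 of all 32851 windows (1.17%). The form of this motif was chosen after the sequences had been seen. Windows of KRAB members held it in 24 of 176 (13.6%) and those of members without the box in 6 of 115 (5.22%). It is shown in capitals in the promoters of 2 members that were lower with lactate, Zfp773 and Zfp420, and of 1 that was higher, Zfp566, all of them on chromosome 7 and each printed 5′ to 3′ in the direction of transcription.
Zfp773, chr7:7136706-7137005, minus strand: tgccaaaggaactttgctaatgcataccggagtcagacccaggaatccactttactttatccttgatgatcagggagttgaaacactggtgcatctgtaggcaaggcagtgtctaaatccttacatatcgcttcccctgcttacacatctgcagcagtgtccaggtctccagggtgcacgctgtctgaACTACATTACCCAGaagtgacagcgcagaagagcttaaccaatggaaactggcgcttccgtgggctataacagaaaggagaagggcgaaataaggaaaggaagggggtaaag
Zfp420, chr7:29859762-29860061, plus strand: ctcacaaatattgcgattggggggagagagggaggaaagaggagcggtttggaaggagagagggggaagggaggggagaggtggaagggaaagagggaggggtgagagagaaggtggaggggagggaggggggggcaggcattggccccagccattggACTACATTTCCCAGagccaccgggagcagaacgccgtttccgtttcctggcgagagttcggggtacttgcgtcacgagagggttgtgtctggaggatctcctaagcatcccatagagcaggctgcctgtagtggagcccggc
Zfp566, chr7:30090461-30090760, minus strand: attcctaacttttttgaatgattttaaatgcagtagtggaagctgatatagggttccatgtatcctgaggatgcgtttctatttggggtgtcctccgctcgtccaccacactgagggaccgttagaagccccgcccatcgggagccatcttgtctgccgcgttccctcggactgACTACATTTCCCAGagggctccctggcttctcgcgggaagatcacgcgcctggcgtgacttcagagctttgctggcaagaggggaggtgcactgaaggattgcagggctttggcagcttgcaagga
The motif begins 62 bases before the start of Zfp773, 92 before that of Zfp420 and 76 before that of Zfp566. The 29 members with the motif had a median log2 change with lactate of -0.30, with 6 called lower and 1 higher, and the 213 with a window but no motif had -0.26, with 35 lower and 1 higher. Among other letters searched on both strands, the ETS motif CCGGAAG lay in 21% of members' windows and 8.86% of all windows, the NRF1 motif, GCGC followed after any base by TGCGC, in 9.28% and 4.6%, the GC box GGGCGG in 46.7% and 35.7%, and TATAAA in 7.22% and 13.6%. The E-box CACGTG was found in 7.22% of members' windows and 7.15% of all windows. Members' windows had a median of 15 CG pairs and 55.3% GC, against 7 and 52.7% over all windows. The motif shares were not adjusted for this.

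The first question was how the Zfp genes stood in cells activated with lactate against those activated in media. 5 members were higher and 49 lower by edgeR's quasi-likelihood test at a Benjamini-Hochberg adjusted p of at most 0.01, where 13.9% of all genes tested were higher and 11.1% lower. The corresponding shares of the members were 1.7% and 16.7%. Their median log2 change was -0.26 (quartiles -0.56 and 0.06), against -0.0016 over all genes tested, and 211 of the 294 lay below 0. The values of the 4 lactate libraries were all below those of the 4 media libraries in 91 members and all above them in 24, where 21.5% and 23.2% of all genes did so.

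The change of most members was small. A log2 change of -1 or less was found for 5.44% of members and 9.41% of all genes, whereas -0.5 or less was found for 30.3% of members and 22.9% of all genes. At the other end, 95.2% of members and 80.5% of all genes had a change of 0.5 or less. Among the called genes, 11 of the 294 members were lower and 1 was higher by at least 2-fold. Of all 13767 genes tested, 667 were lower and 580 higher by as much. Most members thus lay somewhat lower with lactate, and few changed strongly.

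**Figure D1:**
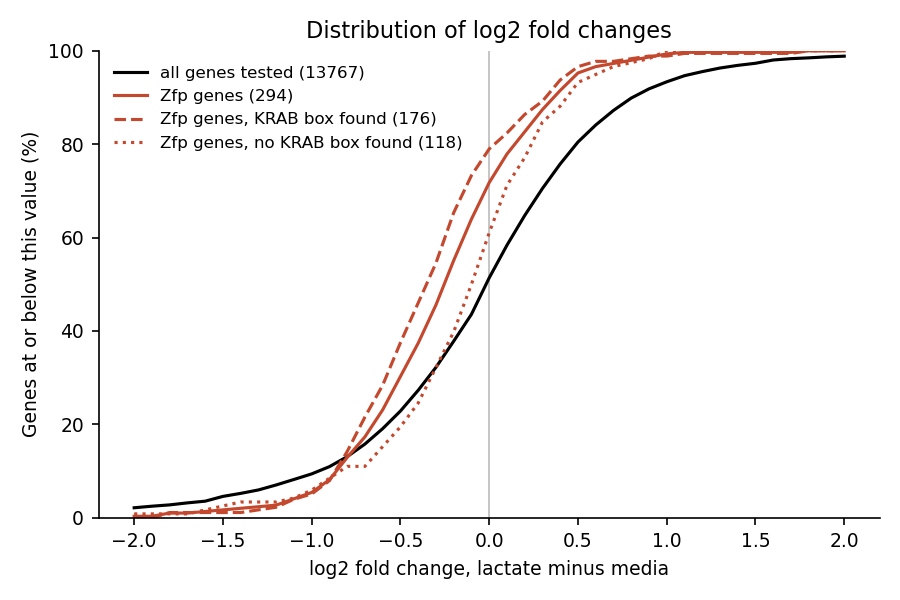
Cumulative share of genes (y axis, percent) at or below each log2 fold change of lactate against media (x axis), for all genes tested (black), the 294 Zfp genes (solid red), the KRAB members (dashed) and the members without KRAB (dotted). The KRAB curve lies to the left of the others near 0, with 79% of its genes at or below 0 against 51.4% of all genes.

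The summed level of the members showed the same in each library. Naïve libraries held 8273 to 9871 CPM of the 294 genes together (8892 ± 709.5, SD, n = 4), media libraries 7418 to 8524 CPM (7828 ± 498, SD, n = 4) and lactate libraries 6420 to 7029 CPM (6654 ± 262.8, SD, n = 4). The lowest media library stood above the highest lactate library, while the highest media library stood above the lowest naïve one. Per length, the median member had 12.3 TPM, a level scaled to gene length as well, in naïve cells, 11 in media and 8.12 in lactate, where the median of all genes was 20.8, 20.4 and 18.3.

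**Figure D2:**
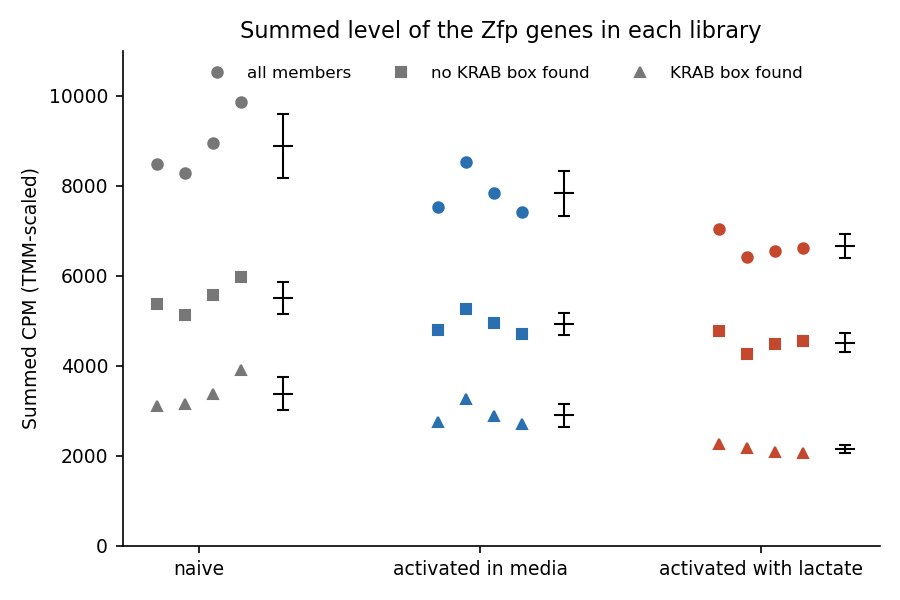
Summed CPM of the Zfp genes (y axis) in each of the 12 libraries by group (x axis), for all 294 (circles), the 118 without KRAB (squares) and the 176 with KRAB (triangles), with the mean and SD of 4 libraries beside each set. For the KRAB members all 4 lactate libraries, at 2068 to 2260 CPM, lie under the 4 media libraries, at 2704 to 3264 CPM.

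KRAB members made up most of the difference in level between media and lactate. Their sum was 3107 to 3896 CPM in naïve cells, 2704 to 3264 CPM in media and 2068 to 2260 CPM in lactate, and the lactate libraries did not overlap either other group. Members without KRAB summed to 5127 to 5976 CPM in naïve cells, 4713 to 5260 CPM in media and 4253 to 4769 CPM in lactate, and media and lactate overlapped. Of the 176 KRAB members 2 were called higher and 33 lower with lactate, 139 lay below 0 and the median log2 change was -0.35. Of the 118 without KRAB 3 were higher and 16 lower, 72 lay below 0 and the median was -0.10. The difference between these groups was not tested. KRAB members also differed from the rest in level, with a median over the group of 10.2 CPM against 29.5 CPM. The GC content of the longest transcript differed too, with a median of 41.5% against 50.7% (all genes 49.6%). When GC content and exon length were allowed for, the median of all members was -0.20 in place of -0.26, and it was -0.15 when the donor block was added to this correction.

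The median change was lower in groups with more fingers, while the share called lower did not follow finger number. From fewest to most fingers the share called lower was 14%, 18.7%, 16.4% and 17.2%, beside 11.1% of all genes. The share called higher was 6.98%, 1.33%, 0% and 1.56%, beside 13.9%. Members with 4 fingers or fewer (43 genes) had a median log2 change with lactate of -0.05, with 3 higher and 6 lower. For 2 members, both annotated as pseudogenes, no fingers were counted. Those with 5 to 9 fingers (75 genes) had -0.19, with 1 higher and 14 lower, and those with 10 to 14 (110 genes) had -0.28, with 18 called, all of them lower. The 64 members with 15 or more fingers had -0.40, with 1 higher and 11 lower. Finger number and the KRAB box go together in these genes, so the groups are not independent of each other. Median GC content also fell over the finger groups, at 48.6%, 47%, 43.3% and 40.6%. Their median levels were 30.2, 20.1, 10.7 and 12.4 CPM. The part of these traits in the change was not tested.

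The members were also split by level and position. When the members were split into 3 equal groups from low to high mean CPM, the medians were -0.25, -0.32 and -0.20, with 7, 17 and 25 genes called lower. Members with another member within 200 kb (178 genes) had a median of -0.27 and the other 116 had -0.24. On chromosome 7, which holds 79 members, the median was -0.22, on chromosome 17 (36 members) -0.46 and on chromosome 13 (29 members) -0.35. Within the low and high ranges of library numbers these were -0.20 and -0.19 on chromosome 7, -0.41 and -0.28 on chromosome 17 and -0.17 and -0.60 on chromosome 13, so the order of chromosomes 13 and 17 was not the same in both ranges. Genes outside the family with a GC content between the quartiles of the members (7003 genes) had a median of -0.02, and genes with a mean CPM between the members' quartiles (3479 genes) had 0.02. Of the 95 members whose exons overlap another gene 4 were called higher and 11 lower, and of the other 199 members 1 was higher and 38 lower.

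The libraries carry numbers in a low and a high range in the labels, with naïve 4, media 4, lactate 3 and lactate 4 in the high range, and the lactate values were compared with media within each. The members' median was -0.23 in the low range and -0.25 in the high range, where media was 1 library. With the donor as a block in the 8 activated libraries, which left 287 members to test, 4 were higher and 40 lower, where 15.6% and 13.7% of all genes were, and the median was -0.21. Of the 49 lower members 34 kept their call with the donor block and 24 in every alternative tried. Of the 5 higher members 2 kept it with the donor block, which did not test Zfp229, and 2 in every alternative that tested them. The number of calls depended on single libraries, among the members and over all genes. 25 members were lower without media 2, 28 without lactate 3, 28 without lactate 4 and 70 without naïve 4. The matching counts over all genes were 914, 979, 1004 and 2293, beside 1534 in the main fit. Higher members numbered 12 without naïve 4, 8 without media 4 and 3 without media 2, media 3, lactate 1, lactate 3 or lactate 4. Over all genes 2552 were higher without naïve 4, 1659 without media 4 and 1338 to 1521 in the others named. The main fit had 1917.

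**Figure D3:**
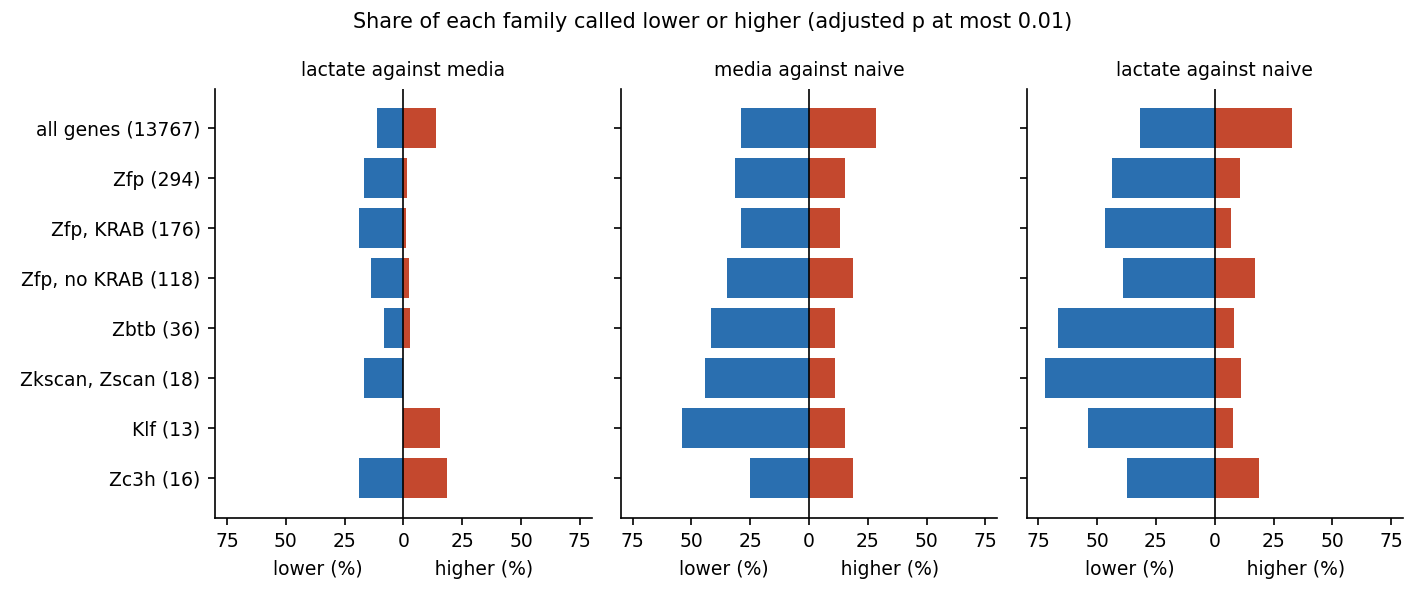
Percent of genes called higher (to the right) and lower (to the left) at an adjusted p of at most 0.01 in each comparison, for all genes tested, the Zfp genes with and without KRAB and 4 other zinc finger families, with the number of genes in parentheses. In lactate against media 16.7% of the Zfp genes were lower and 1.7% higher, against 11.1% and 13.9% of all genes.

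Of the 6 largest decreases with lactate under the rule for named genes, 4 were KRAB zinc finger genes, beside 176 of all 294 members. Called lower by at least 2-fold were 6 of the 176 KRAB members and 5 of the 118 without KRAB. Zfp945, a KRAB gene with 18 fingers on chromosome 17 (22846697 to 22867134, GRCm38), stood at 38.9, 41.8, 50.2 and 36.6 CPM in naïve cells, 8.88, 20, 9.59 and 7.34 CPM in media and 2.97, 4.19, 2.55 and 2.94 CPM in lactate. None of the 3 groups overlapped, and each step was downward. The log2 change was -1.85 ± 0.29 (SE) from media to lactate (edgeR adjusted p = 0.00049) and -1.87 ± 0.28 from naïve to media (adjusted p = 6.79e-05), so that lactate stood 13.2-fold under naïve.

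Zfp773, a KRAB gene with 9 fingers whose promoter is printed above, read 7.16, 9.43, 11.5 and 8.51 CPM in naïve cells, 13.1, 16.8, 9.47 and 4.83 CPM in media and 3.74, 3.77, 2.05 and 3.03 CPM in lactate. The lactate libraries were under all others, and media 4 was the lowest of its group. Its log2 change with lactate was -1.81 ± 0.34 (adjusted p = 0.00138).

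Zfp395, which has 1 finger, no KRAB box and is known to bind the promoter of the huntingtin gene, followed another course. It was at 61.4, 50.9, 58.5 and 65.1 CPM in naïve cells, 175.4, 233.7, 186.2 and 194.4 CPM in media and 43.9, 79.8, 65.8 and 73.7 CPM in lactate. Media stood apart from both other groups, which overlapped. Its log2 change was 1.74 ± 0.17 from naïve to media (adjusted p = 1.71e-06) and -1.59 ± 0.17 from media to lactate (adjusted p = 6.36e-05), and lactate differed from naïve by 0.16 (adjusted p = 0.403). Per length it was among the highest members in media, with a mean of 144.6 TPM.

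Zfp949, a KRAB gene with 11 fingers, was at 18.3, 21.9, 20.2 and 28.9 CPM in naïve cells, 20.1, 30.8, 19.9 and 25 CPM in media and 7.58, 10.6, 9.13 and 9.78 CPM in lactate. Naïve and media overlapped, while every lactate library was lower. The log2 change with lactate was -1.37 ± 0.19 (adjusted p = 0.000214).

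Zfp871 is a KRAB gene with 15 fingers on chromosome 17. It stood at 209.4, 189.7, 227.6 and 329.2 CPM in naïve cells, 205.2, 262.4, 228.1 and 111.9 CPM in media and 110.8, 92.7, 66.5 and 63.1 CPM in lactate. The groups were separated only by the gap between media 4 and lactate 1. The log2 change with lactate was -1.28 ± 0.27 (adjusted p = 0.00261), and it passed the threshold neither without media 2 nor without lactate 3 or lactate 4, with an adjusted p of up to 0.0109.

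Zfp420, in which 19 fingers and no KRAB box were found, was at 14.9, 14.6, 16.4 and 13.5 CPM in naïve cells, 10.8, 14.5, 13 and 7.27 CPM in media and 6.05, 5.71, 4.25 and 3.9 CPM in lactate. Lactate lay under both other groups, and its log2 change against media was -1.19 ± 0.22 (adjusted p = 0.00119). The calls of Zfp945, Zfp773, Zfp395, Zfp949 and Zfp420 held in all 26 alternatives tried. For each of these genes the exact two-sided permutation test of log2 CPM gave p = 0.0286, the smallest that 4 against 4 libraries allow. The rule for named genes asked for no overlap between the groups, which fixes this value, so it adds no support.

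The other 5 members that were called lower by at least 2-fold, Zfp120, Zfp260, Zfp831, Zfp618 and Zfp97, ranked below these 6 or missed the rule for named genes. Those given next are named after their values were seen. Zfp120 went from a mean of 70.5 CPM in media to 31.8 CPM in lactate and stood at 26.4 CPM in naïve cells. Zfp260 went from 71.9 to 34.7 CPM (naïve 80.9 CPM) and Zfp831 from 14.2 to 6.98 CPM (naïve 83.2 CPM). Their log2 changes with lactate were -1.15, -1.05 and -1.02, and Zfp831 was not called without media 2, lactate 2 or lactate 3.

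5 members were called higher with lactate, and 4 of them met the rule for named genes. These 4, Zfp593, Zfp608, Zfp566 and Zfp706, all have exons that overlap another gene. Zfp593, a conserved factor in the assembly of the large ribosomal subunit, was at 23.4, 23.4, 23.6 and 23.2 CPM in naïve cells, 20.9, 14.9, 19.6 and 18.4 CPM in media and 30.3, 33.8, 31.8 and 30.2 CPM in lactate. All lactate libraries were above all naïve ones, which were above all media ones. The log2 change with lactate was 0.77 ± 0.11 (adjusted p = 0.000281), and 0.68 with the donor block (adjusted p = 0.00197). On 77.9% of its exon bases Zfp593 overlaps E130218I03Rik on the opposite strand, and the strand setting of the counting was not given in the sources used here, so reads of the 2 genes may not be told apart.

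Zfp608 has 1 finger, is on chromosome 18 and is known for holding down Rag gene expression in thymocytes. It was at 19.5, 19.2, 11 and 18.7 CPM in naïve cells, 26, 17.6, 23.9 and 32.1 CPM in media and 45.1, 32.3, 52.5 and 64.4 CPM in lactate. Naïve and media overlapped, and lactate 2 was above media 4 by a narrow gap. The log2 change with lactate was 0.96 ± 0.24 (adjusted p = 0.00769), and the call was lost without media 1, media 2, media 3, lactate 1, lactate 3 or lactate 4, with an adjusted p of up to 0.03.

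Zfp566, a KRAB gene with 7 fingers, was lower in media than in naïve cells and partly higher again with lactate. Its values were 6.71, 7.09, 8.14 and 7.12 CPM in naïve cells, 3.01, 2.51, 2.56 and 3.45 CPM in media and 5.53, 4.98, 4.95 and 4.82 CPM in lactate. The 3 groups did not overlap. The log2 change was -1.33 ± 0.17 from naïve to media (adjusted p = 1.47e-05) and 0.81 ± 0.17 from media to lactate (adjusted p = 0.00222), and the latter was not called with the donor block (adjusted p = 0.0164). On 17.9% of its exon bases it overlaps Gm26920.

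The remaining higher members moved little or were near the limit of detection. Zfp706 went from 68.4 to 73.3 CPM in media to 84.9 to 94.4 CPM in lactate, with a log2 change of 0.33 ± 0.09 (adjusted p = 0.00991), and 18 of 26 alternatives did not call it, among them leaving out any 1 library other than naïve 4. Zfp229, a KRAB gene with 16 fingers that fell short of the 5 CPM asked for by the rule, had 7, 4, 3 and 4 counts in media and 17, 15, 8 and 21 counts in lactate, after 25, 30, 34 and 18 counts in naïve cells. Its log2 change with lactate was 1.72 ± 0.34 (adjusted p = 0.00187).

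**Figure D4:**
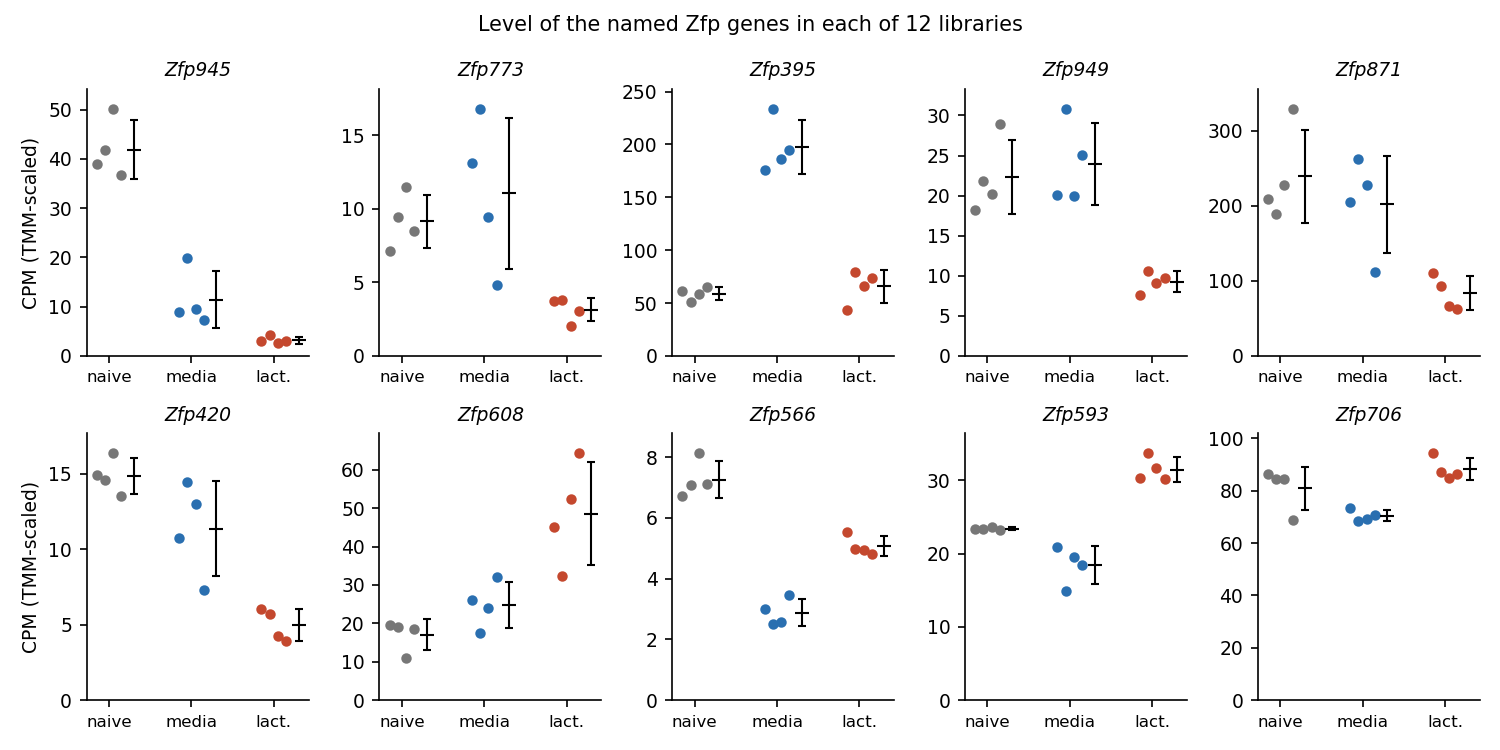
CPM (y axis, linear, from 0) in each library of the named Zfp genes with the largest decreases and increases from media to lactate, by group (x axis), with points for libraries and bars for the mean and SD of 4. The 4 lactate points lie under the 4 media points for Zfp945, Zfp773, Zfp395, Zfp949, Zfp871 and Zfp420, and above them for Zfp608, Zfp566, Zfp593 and Zfp706.

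Members with a known role were looked at in groups. Of 9 members that act on RNA, ribosomes or translation 1 was higher with lactate (Zfp593) and 1 lower, or 11.1% each way beside 13.9% and 11.1% of all genes, with a median log2 change of 0.23. The lower one was Zfp330, at -0.32 (adjusted p = 0.00675), a call lost in 10 alternatives: the title-number and donor blocks, the GC correction with and without the donor, and leaving out media 2, media 3, media 4, lactate 1, lactate 3 or lactate 4. Zfp598, the ubiquitin ligase that marks collided ribosomes, and the RNA-binding Zfp106 had log2 changes of 0.43 (adjusted p = 0.014) and 0.47 (adjusted p = 0.0155), which missed the threshold.

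Of 12 members that act in transcription and chromatin, with a median of -0.15, the call with lactate was 1 decrease. It was Zfp644, a partner of the histone methyltransferase G9a, at -0.49 (adjusted p = 0.00581), and 8 alternatives did not call it: the donor block, the GC correction with and without the donor, and leaving out media 2, media 3, lactate 2, lactate 3 or lactate 4. Zfp143, the mouse gene for the factor whose motif is shown above, was at a mean of 35.2 CPM in naïve cells, 53.3 in media and 41.6 in lactate, with 0.60 from naïve to media (adjusted p = 0.000354) and -0.36 with lactate (adjusted p = 0.0205). Zfp445, Zfp809 and Zfp568, known for imprinting or the silencing of retroelements, had log2 changes with lactate of -0.44 (adjusted p = 0.0864), -0.33 (adjusted p = 0.126) and 0.36 (adjusted p = 0.262), which missed the threshold. The lymphocyte genes Zfp683 (Hobit) and Zfp318, which is needed for IgD, had -0.05 (adjusted p = 0.968) and -0.16 (adjusted p = 0.322), and the spindle factor Zfp207 and the SUMO ligase Zfp451 had -0.03 (adjusted p = 0.899) and -0.23 (adjusted p = 0.123). The signs of the values for Zfp207, Zfp451, Zfp318 and Zfp683 changed under some alternatives.

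Neighbouring genes did not all move one way. In a block of 15 members on chromosome 7, from 29768552 to 30169750, 12 carried a KRAB box, 10 lay below 0 and the median log2 change with lactate was -0.28. Zfp420, Zfp74 and Zfp260 were lower there, and Zfp566 was higher and lies next to Zfp260, which fell by 1.05 on the log2 scale. The block was chosen after its values had been seen. Of the other runs of 8 or more members within 200 kb of each other, that on chromosome 13 (67038596 to 67827002) held 17 members, all with KRAB, of which 16 lay below 0 and 2 were called lower, with a median of -0.40. The run of 17 on chromosome 17 (21383748 to 22456689) had a median of -0.51, with 3 lower and 1, Zfp229, higher, whereas the run of 8 on chromosome 7 (127233061 to 127615797) had 0.14 and the run of 9 on the same chromosome (24081924 to 24587641) had -0.06.

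**Figure D5:**
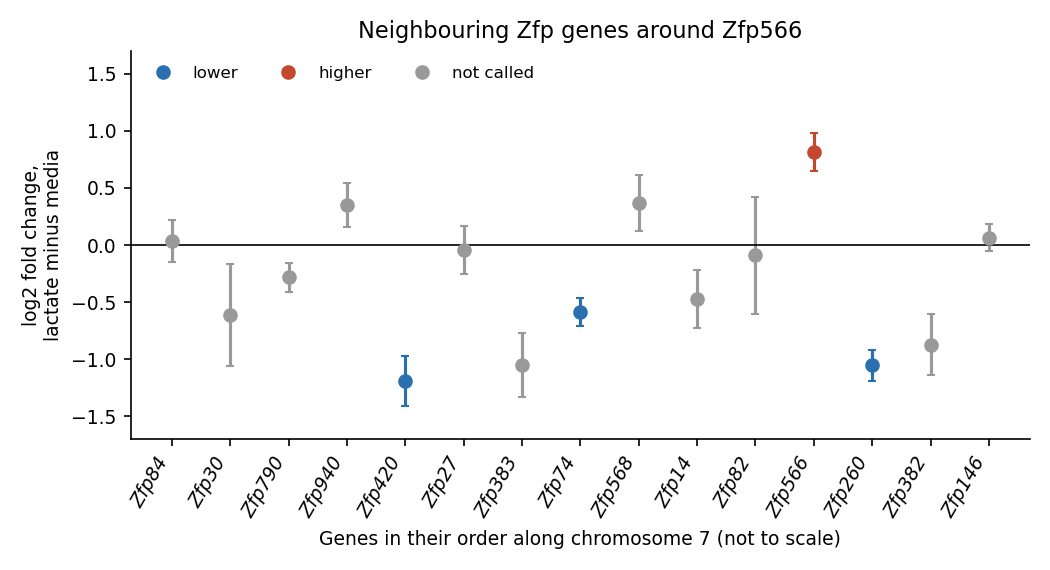
Log2 fold change of lactate against media (y axis, points with bars for the SE, coloured by call) for the 15 neighbouring Zfp genes of the chromosome 7 block in their order along the chromosome (x axis). Zfp420, Zfp74 and Zfp260 were called lower, and Zfp566, next to Zfp260, was called higher at 0.81.

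The second question was how activation in media changed the Zfp genes against naïve cells. 45 members were higher and 92 lower, where 28.5% of all genes tested were higher and 29% lower, and the members' shares were 15.3% and 31.3%. Their median log2 change was -0.20 and that of all genes -0.03. Within the low range of library numbers the members' median was -0.12, and within the high range, with naïve 4 and media 4 alone, it was -0.38. KRAB members (23 higher, 51 lower, median -0.20) and members without KRAB (22 higher, 41 lower, median -0.21) had like values here. The median of all members was -0.13 without naïve 4 and -0.12 without the 95 members whose exons overlap another gene.

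Zfp473, a KRAB gene whose product takes part in the processing of histone mRNA, was at 0.902, 1.2, 1.24 and 2.63 CPM in naïve cells and 14.1, 15.8, 13.5 and 13.2 CPM in media. Its log2 change was 3.23 ± 0.27 (adjusted p = 5.12e-07), and it stood at 10.2 to 11.2 CPM in lactate. Zfp219 rose from 20.8 to 24 CPM in naïve cells to 95.9 to 111.9 CPM in media, a log2 change of 2.24 ± 0.09 (adjusted p = 2.09e-09). Both genes were several times higher in every activated library than in any naïve one.

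Zfp41 rose by 2.32, Zfp760 by 1.98 and Zfp367, known as a cell cycle regulated factor, by 1.71 on the log2 scale. Zfp367 was at 18 to 27.4 CPM in naïve cells and 54.6 to 88.5 CPM in media. Zfp760 was at 3.64 to 5.89 CPM in naïve cells, and its media values of 20.1, 26.9, 19.4 and 6.08 CPM show media 4 close to them.

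Zfp366, a factor of dendritic cells (DC-SCRIPT), fell the most. It was at 27.3, 22.6, 18 and 6.84 CPM in naïve cells and had at most 1 count in any activated library, so that media stood at least 113.6-fold lower and lactate at least 111.9-fold lower, against a floor of 3 counts per library. The myeloid markers summed to 1263, 989.7, 423.5 and 410 CPM in the same naïve libraries, in the same order as Zfp366, and to at most 18.6 CPM after activation. The part of other cells in this difference was not tested.

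Zfp831 was at 90.6, 85.8, 88.5 and 67.7 CPM in naïve cells, 11.7, 19.9, 9.92 and 15.5 CPM in media and 8.66, 4.98, 6.37 and 7.9 CPM in lactate, with a log2 change on activation of -2.55 ± 0.22 (adjusted p = 7.9e-07). Each group lay under the one before it. Zfp710 fell by 2.11, Zfp882 by 2.38 and Zfp658 by 2.33 on the log2 scale. In naïve 4, which had the lowest sum of CD8 genes (808.8 CPM) and was the naïve library of the high range, Zfp366, Zfp831, Zfp710 and Zfp658 were also the lowest of their group. The sum of all members went the other way and was highest there, at 9871 CPM against 8484, 8273 and 8941 CPM in naïve 1 to naïve 3.

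Among the members with a known role, those for RNA and translation counted 1 higher and 3 lower of 9 on activation, and those for transcription and chromatin 2 higher and 5 lower of 12, beside 28.5% higher and 29% lower of all genes. Zfp609, which works with the cohesin loader Nipbl, rose by 1.04 ± 0.16 (adjusted p = 7.11e-05) and Zfp592 fell by 1.06 ± 0.13 (adjusted p = 1.6e-05). Zfp638, an RNA-binding member known for silencing of retroviral DNA, fell by 0.89 ± 0.12 (adjusted p = 2.16e-05). Zfp207 rose by 0.50 (adjusted p = 0.00433), which 11 alternatives did not call (the 2 groups alone, the GC correction, and leaving out any 1 library but media 4, lactate 1 or lactate 2), and per length it was the highest member in media (157.7 TPM) and in lactate (140.5 TPM).

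Cells activated with lactate were also set against naïve cells, a comparison that shares its groups with the other 2. 32 members were higher and 128 lower, where 33% of all genes were higher and 32% lower, and the medians were -0.46 for the members and 0.01 for all genes. Of the KRAB members 12 were higher and 82 lower (median -0.55), and of those without KRAB 20 were higher and 46 lower (median -0.24). The 6 members above 100 CPM in lactate compare with 13 in media and 17 in naïve cells. Zfp740 had the highest TPM of all members in naïve cells, at 115.5.

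Genes of the machinery that KRAB proteins use were looked at as a list of 28. With lactate 6 were higher (21.4%) and 2 lower (7.14%), beside 13.9% and 11.1% of all genes, and the median log2 change was 0.12. The higher ones belong to or work with NuRD and histone deacetylation (Rbbp4, Rbbp7, Mbd2, Mbd3, Hdac2) or to the HUSH complex (Pphln1), with 0.35 to 0.72. Atf7ip, which stabilises Setdb1, fell from a mean of 174.5 to 88.2 CPM (log2 change -0.98 ± 0.12, adjusted p = 0.000129; naïve 222.9 CPM), and the NuRD helicase Chd3 from 280.6 to 154.9 CPM (-0.86 ± 0.15, adjusted p = 0.000767; naïve 644.3 CPM).

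Trim28 itself stood at 286.3 CPM in naïve cells, 454.6 in media and 558.3 in lactate. Its log2 change was 0.67 on activation (adjusted p = 3.7e-05) and 0.30 with lactate (adjusted p = 0.0221), the latter not called. Setdb1 had 0.22 (adjusted p = 0.0335) and -0.11 (adjusted p = 0.341). On activation 11 genes of the list were higher (39.3%) and 4 lower (14.3%), beside 28.5% and 29% of all genes, with the largest rises for Uhrf1 (3.47), Cbx5 (2.16) and Dnmt1 (1.81), the gene of the maintenance DNA methyltransferase.

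Other zinc finger families were set beside the Zfp genes by symbol. The shares of all genes were those given above (13.9% higher and 11.1% lower with lactate). With lactate, 1 of 36 Zbtb genes was higher and 3 were lower (median -0.18), and of 18 Zkscan and Zscan genes 3 were called, all lower (median -0.36). Of the 13 Klf genes 2 were called, both higher (median -0.04), and the 16 Zc3h genes, which carry CCCH fingers, had 3 higher and 3 lower (median -0.09). On activation the medians were -0.48, -0.49, -1.29 and -0.17. These families were not tested against the Zfp genes.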

How the data were processed

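The authors deposited raw whole-number counts of reads per gene for the 12 libraries. They sequenced stranded mRNA libraries, mapped 71-base single-end reads to GRCm38 with STAR 2.7.5b after bcl2fastq 2.20.0.422 (versions also given in the submitters' processing notes), removed duplicates and counted unique reads in exons with featureCounts, so genes that share sequence lose reads. The strand setting was not given in the sources used here. Columns of other samples numbered 0.

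Counts were analysed with edgeR 4.0.16 in R 4.3.3 (limma 3.58.1 and DESeq2 1.42.0 for alternatives). Genes reaching 1 CPM in at least 3 libraries were scaled by TMM and fitted in 1 quasi-likelihood model with a term per group. Differences were called at a Benjamini-Hochberg adjusted p of at most 0.01 over all 13767 genes, and CPM values are TMM-scaled. The fit was tested on simulated data. Library totals of 14726904 to 21478137 counts set the precision, and the floor of 3 counts covers counting error only. TPM used the gene lengths in the table.

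Donors from the labels, read as mice, pair 3 media and lactate libraries. Their deviations from the group means correlated at 0.374, 0.211 and 0.553. Media 2 and lactate 2, which carry different WT numbers, correlated at 0.297, so these values cannot show whether the numbers mark shared mice. The pairing rests on the labels alone, and the donor block is given beside the results. Libraries of a group came from separate mice, per the study.

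Members and gene lists were chosen with earlier results of these data known. Named genes were those with a role listed beforehand and, for lactate against media and for media against naïve, up to 6 called members with the largest increase and 6 with the largest decrease, at 5 CPM or more in either group and with no overlap between groups. KRAB boxes were found in translated GENCODE coding sequences (GRCm38) with a HMMER profile built from 146 boxes at an E-value of at most 1e-05, and fingers by pattern. Gene annotation was matched for 13771 of 13780 genes. Promoter windows came from RefSeq on GRCm38.p6. Alternatives covered tests, scaling, filters, pairing, library range, GC content with length, overlapping exons and leaving out each library.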

Additional observations from a re-analysis of the deposited data

Results flagged for a closer look

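In the 47 named members, 141 groups of 4 libraries were examined for a highest or lowest library whose gap to the next, divided by the range of the group, was above Dixon's critical value, at which chance alone flags about 1 in 20 groups. 17 were found. 6 were in naïve 4, the library with the lowest CD8 markers and the one naïve library with a number in the high range of the labels: Zfp830 was at 24.9 CPM there (17.1 to 17.8 in the other naïve libraries), Zfp106 at 252.6 CPM (188 to 192.3), Zfp384 at 112.9 CPM (71 to 75.5), Zfp683 at 0.168 CPM (6.09 to 8.62), Zfp706 at 68.8 CPM (84.3 to 86.3) and Zfp658 at 12.3 CPM (20.5 to 22.4). Zfp683 (Hobit) is a factor of resident and innate-like lymphocytes, and naïve 4 held almost none of it.

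Elsewhere among naïve libraries, Zfp608 was at 11 CPM in naïve 3 (18.7 to 19.5 in the others) and Zfp367 at 27.4 CPM in naïve 2 (18 to 19.3). In media 1, Zfp326 was at 23.8 CPM (27 to 27.1 in the others) and Zfp451 at 57.5 CPM (68.1 to 69.6). In lactate 2, Zfp609 was at 76.4 CPM (114.5 to 124.1) and Zfp318 at 50.4 CPM (69.1 to 71.5). In lactate 1, Zfp809 was at 23.2 CPM (17.6 to 18.2) and Zfp473 at 11.2 CPM (10.2 to 10.3), and in lactate 4 Zfp683 was at 7.71 CPM (9.28 to 9.62). Zfp366 had 1 count in media 1 (0.0462 CPM) and 1 in lactate 1 (0.0512 CPM), with 0 in the others of each group, which is no more than counting noise allows.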

How the results depend on the processing

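The members' median change with lactate stayed below 0 under every alternative. It was -0.20 when GC content and exon length were corrected for and -0.15 with this correction and the donor block together, which called 11 members higher. Over all genes the main fit called 1917 higher, and the GC correction with the donor block 2381 of 12460. The members' 5 higher calls became 11 with the likelihood ratio test, 9 with DESeq2, 8 with voom and 13 with the 2 groups alone. The matching counts over all genes were 2246, 2244, 2008 and 2462, the last of 12460. Without the members whose exons overlap another gene there was 1 higher call. At an adjusted p of at most 0.05 there were 18 higher and 83 lower. Leaving out 1 library gave 3 to 12 higher, 25 to 70 lower and a median of -0.29 to -0.23. Over all genes it gave 1338 to 2552 higher and 914 to 2293 lower. The donor block alone gave 4 higher, 40 lower and a median of -0.21, and ended the calls of Zfp566, Zfp706, Zfp330 and Zfp644. The title numbers, whose pairs correlated at 0.374, 0.297, 0.0038 and 0.553, do not all join libraries with the same WT number. As a block they gave 5 higher and 48 lower.

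For media against naïve the median was -0.27 with DESeq2 and -0.27 with its size factors, -0.26 with the GC and length correction and -0.12 without overlapping members, which left 55 lower. Leaving out 1 library gave 35 to 53 higher, 74 to 99 lower and a median of -0.29 to -0.13. Over all genes it gave 3381 to 4198 higher and 3513 to 4159 lower. For lactate against naïve the median was -0.56 with DESeq2 and -0.56 with its size factors, -0.52 with upper quartile scaling, -0.52 with at least 10 counts in every library and -0.52 with the 2 groups alone. Without overlapping members there were 20 higher and 80 lower. Leaving out 1 library gave 24 to 37 higher, 117 to 140 lower and a median of -0.56 to -0.43. Over all genes it gave 4000 to 4810 higher and 3907 to 4673 lower. The gap between the members' median and that of all genes was also taken. For media against naïve it was -0.175 in the main fit and -0.176 with DESeq2 and with its size factors. The GC and length correction gave -0.229. For lactate against naïve it was -0.47 in the main fit, with DESeq2 and with its size factors. The upper quartile gave -0.48, at least 10 counts -0.56 and the 2 groups alone -0.46. The cause of these moves was not tested.

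Of 2321 values of named members under alternatives 2140 kept direction and side of the threshold. 36 changed sign, all of them small and not called. For lactate against media, Zfp622 was -0.051 with the donor block. Zfp638 was -0.0185 with DESeq2 and, in edgeR, -0.0187 with DESeq2's size factors, -0.014 with the upper quartile and -0.0281 with library totals. Zfp384 was -0.0088, Zfp207 0.058 and Zfp683 0.23 with a term for the library range. With the GC correction Zfp207 was 0.13, Zfp451 0.0545 and Zfp318 0.055, and with the donor block as well Zfp207 was 0.24, Zfp451 0.014, Zfp318 0.11 and Zfp710 0.043. Zfp207 was 0.12 with the donor block alone. For media against naïve Zfp451 was 0.035 with the GC correction. Over the fits that leave out 1 library, the values that crossed 0 ran, for lactate against media, from -0.16 to 0.070 for Zfp207, -0.15 to 0.031 for Zfp335, -0.22 to 0.055 for Zfp367, -0.0055 to 0.23 for Zfp622, -0.082 to 0.073 for Zfp638 and -0.16 to 0.061 for Zfp683. For media against naïve they ran from -0.031 to 0.19 for Zfp445, -0.23 to 0.047 for Zfp622 and -0.040 to 0.25 for Zfp949.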
